A study of Mus musculus with 32 samples.

Results

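The genes described here are 8 dual-specificity MAP kinase phosphatases of the mouse, Dusp1, Dusp4, Dusp5, Dusp6, Dusp7, Dusp10, Dusp14 and Dusp16. They were found as the array probe sets annotated to exactly 1 of these gene symbols, which gave 12 of the 45101 probe sets and 8 of the 18194 genes with a probe set of 1 symbol. Of the 12 probe sets, 10 passed a filter on low values (a log2 signal above 5.52, the median of all values, on at least 8 of 32 arrays), and every one of the 8 genes kept at least 1. A second probe set of Dusp10 and one of Dusp16 did not pass, with log2 signals of 4.71 to 5.97 and of 3.23 to 5.21. Each gene stands by its kept probe set of highest mean, and only Dusp7 had more than 1 kept, namely 3.

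RNA came from E1KD cells, a derivative of the NMuMG line with hnRNP E1 knocked down, and from NMuMG cells, a normal mouse mammary epithelial line that is wild type for hnRNP E1. Both were left untreated or given 5 ng/ml TGFβ2 for 24 h, and total, polysomal (translating) and monosomal (non-translating) RNA was hybridized from each, so that 12 conditions with 2 arrays each were measured. A further 8 arrays held RNA precipitated with α-hnRNP E1 or IgG from cytosol of NMuMG cells with or without TGFβ, 2 arrays per condition. The knockdown is represented by a single derivative line, which the study describes as having undergone EMT without TGFβ, so that the knockdown and the state of that line cannot be told apart. With 2 arrays a condition the number of arrays limits the precision. The methods call the samples of a condition independent, and neither they nor the labels say whether these were separate cultures, so each p-value measures the spread between those samples. Values are log2 signals normalized by RMA, so a level in a pool is relative to the other transcripts of that pool, and in cultured cells fewer cells making a transcript and less of it per cell cannot be told apart. The deposited arrays did not share 1 distribution. The upper quartile of all values was 8.03 to 8.18 on the arrays of total RNA and 7.37 to 7.68 on those of the pools, other than the monosomal pool of untreated NMuMG cells, where it was at least 7.95.

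MAP kinases (ERK, JNK and p38) are switched on by phosphorylation of a threonine and a tyrosine, and dual-specificity phosphatases switch them off by removing both phosphates. Several of these phosphatases are themselves induced by the kinases they silence, which closes a negative feedback loop. Dusp1, Dusp4 and Dusp5 encode nuclear, inducible enzymes, Dusp6 and Dusp7 encode cytoplasmic enzymes that prefer ERK, Dusp10 and Dusp16 encode enzymes that prefer JNK and p38, and Dusp14 encodes a small atypical enzyme without the kinase-docking domain. In mammary epithelium MAP kinase signaling acts beside the SMAD pathway when TGFβ drives the epithelial-mesenchymal transition (EMT). hnRNP E1, the product of Pcbp1, is an RNA-binding protein that holds certain mRNAs out of translation.

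The targeted gene followed its labels. Pcbp1 read 9.33 and 9.55 in total RNA of TGFβ-treated E1KD cells and 10.79 and 10.86 in untreated E1KD cells, against 13.14 on both arrays of TGFβ-treated NMuMG cells and 13.08 and 13.12 in untreated NMuMG cells. Within E1KD cells Pcbp1 was thus lower with TGFβ than without. Its part in the TGFβ responses of E1KD cells, and in their differences from NMuMG cells, was not tested. All 8 epithelial markers passed the filter, as did all 6 mesenchymal ones, against 1 of 3 leukocyte, 1 of 3 endothelial and 0 of 2 adipocyte markers. In untreated E1KD relative to untreated NMuMG cells 5 mesenchymal markers were higher and 0 lower (median 1.04), Fn1 (fibronectin) by 3.39 ± 0.11, and 0 epithelial markers were higher and 3 lower (median -0.095), Ocln (occludin, of tight junctions) at -3.10 ± 0.19 (log2 difference ± SE). The other 5 epithelial markers were not called. Among all probe sets 29.3% were called in this comparison (15.8% higher and 13.5% lower), a share near that of the epithelial markers. Replicates correlated at 0.974 to 0.998, lowest in monosomal RNA from NMuMG cells given TGFβ, where the replicate differences had an SD of 0.484, and next in the polysomal pool of untreated NMuMG cells (0.983). The 4 α-hnRNP E1 libraries have labels that conflict. By title 14A and 13B are TGFβ-treated and 13A and 14B untreated, whereas the descriptions name TGFβ for 14A and 14B.

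Since several of these phosphatases are induced as immediate early genes, the promoters were searched for the letters through which CREB and AP-1 family factors and SMADs are known to act. RefSeq promoters of build GRCm38.p6 were at hand for 7 of the 8 genes, all but Dusp4, and the 250 bases before each start were searched on both strands. A single start was searched per gene, and other starts were not. For Dusp16 and Dusp14, both on the minus strand, that start lay inside the annotated gene. Their promoters end at 134792878 and 84068607, whereas the genes reach to 134807063 and 84069256. The full CRE, TGACGTCA, stood only in Dusp1, and it is found in 1.77% of 27025 gene promoters. Its core TGACG, which lies within the full CRE, stood in Dusp1, Dusp5 and Dusp16 and in 19.8% of all promoters. None of the 7 held an AP-1 site (TGANTCA, 7.82% of all promoters), a SMAD box (GTCTAGAC, 0.2%) or a TATA box (TATAAA, 14.3%) in this window. The matches are shown 5′ to 3′ on the strand of the gene with the motif in capitals, Dusp1 at chr17:26508600-26508623 (minus strand, 143 bases before the start) and at chr17:26508651-26508671 (191 bases), Dusp5 at chr19:53529082-53529102 (plus strand, 55 bases, the core on the opposite strand) and Dusp16 at chr6:134792686-134792706 (minus strand, 70 bases).
Dusp1 CRE: agggcgggTGACGTCAccgcccgg
Dusp1 CRE core: taggccgaTGACGtctttgct
Dusp5 CRE core: ggcactcaCGTCAcaggacgc
Dusp16 CRE core: gtttcaagTGACGccatctct
A match describes the sequence and shows no binding.

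The first comparison asked how TGFβ changed the amount of each phosphatase transcript. In NMuMG cells Dusp6 and Dusp1 fell and Dusp14 rose, and in E1KD cells Dusp1 fell again with Dusp4, while Dusp6 did not pass the test. In NMuMG cells 1 of the 8 genes rose and 2 fell, against 5.43% of all probe sets called (3.0% higher and 2.43% lower; limma, adjusted p under 0.05). In E1KD cells 0 rose and 2 fell, against 21.2% (11.4% higher and 9.75% lower), a share close to the members' own. The study selected Dusp7 on these arrays partly for a limited total RNA change. Without Dusp7, 1 rose and 2 fell in NMuMG cells and 0 rose and 2 fell in E1KD cells, of 7. The median change of the 8 genes was 0.09 in NMuMG cells and -0.03 in E1KD cells, and that of all probe sets 0.01 and -0.02 (log2).

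Dusp6, the cytoplasmic ERK phosphatase, had the largest fall of the 8 in NMuMG cells. It read 10.94 and 10.95 in TGFβ-treated NMuMG cells, against 12.07 on both arrays of untreated NMuMG cells, a change of -1.13 ± 0.13 (log2 ± SE; 0.459 of the untreated level; limma, adjusted p = 2.7e-05). In E1KD cells it read 10.26 and 10.23 with TGFβ, against 10.36 and 10.38 without (-0.13 ± 0.13, 95% interval -0.39 to 0.14, limma adjusted p = 0.57). The arrays of the 4 conditions fell in 4 separate steps, with untreated NMuMG cells on top and both E1KD conditions lowest. The change differed between the lines by 1.00 ± 0.18 (E1KD minus NMuMG, limma adjusted p = 0.0014; 0.063 in 1 fit of all 32 arrays).

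Dusp1, the founding nuclear phosphatase of the family, fell in both lines. It read 9.96 and 10.14 in TGFβ-treated NMuMG cells, against 10.72 and 10.79 in untreated ones (-0.71 ± 0.13, 0.613 of the untreated level, limma adjusted p = 0.0025). In E1KD cells it read 10.77 and 10.88 with TGFβ, against 11.44 and 11.60 without (-0.70 ± 0.13, limma adjusted p = 9.7e-04). The groups did not overlap in either line. The difference between the 2 changes was 0.01 ± 0.18, with a 95% interval of -0.38 to 0.40. Without the first TGFβ array the fall in NMuMG cells was -0.62 (limma adjusted p = 0.055).

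Dusp14 and Dusp4 passed the test in 1 line each. Dusp14 read 8.71 and 8.90 in TGFβ-treated NMuMG cells, against 8.08 and 8.10 in untreated ones (0.72 ± 0.13, 1.64-fold, limma adjusted p = 0.0021; 0.62 and adjusted p = 0.051 without the second TGFβ array). In E1KD cells it was already high and read 9.47 and 9.40 with TGFβ, against 9.29 and 9.43 without, so that the groups overlapped. Dusp4, the close relative of Dusp1, read 11.04 and 11.07 in TGFβ-treated E1KD cells, against 11.43 and 11.61 in untreated ones (-0.47 ± 0.12, limma adjusted p = 0.013), a call that was lost in 3 of 4 fits that left out 1 of these arrays (-0.38 to -0.48, adjusted p = 0.060 to 0.14). In NMuMG cells Dusp4 read 11.54 and 11.61 with TGFβ, against 11.41 and 11.46 without (0.14 ± 0.12, limma adjusted p = 0.76). The responses differed between the lines by -0.61 ± 0.18 for Dusp4 (adjusted p = 0.035) and -0.64 ± 0.18 for Dusp14 (adjusted p = 0.030, limma). Both calls were lost without any filter (adjusted p = 0.083 and 0.069), and Dusp4's in 7 and Dusp14's in 7 of the 8 fits without 1 array. With Dusp6, 3 of the 8 genes passed this test of the difference, 1 upward and 2 downward (1 and 2 of 7 without Dusp7), against 11.4% of all probe sets (5.76% upward and 5.69% downward).

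For the remaining genes the changes in total RNA did not pass the test by the brightest probe set. Dusp5, the nuclear ERK phosphatase, read 8.91 and 8.85 in TGFβ-treated NMuMG cells, against 9.48 and 9.33 in untreated ones (-0.53 ± 0.25, limma adjusted p = 0.33), and 8.86 and 8.57 in TGFβ-treated E1KD cells, against 8.40 and 8.06 in untreated ones (0.49 ± 0.25, adjusted p = 0.19). Its arrays were apart in both lines and in opposite directions, and the difference of 1.01 ± 0.35 did not pass (limma adjusted p = 0.075). By its brightest probe set Dusp7 was 0.35 ± 0.26 higher with TGFβ in NMuMG cells and 0.63 ± 0.26 higher in E1KD cells. Neither passed the test, and the study had selected for a limited total RNA change of Dusp7. Its dimmest probe set read 6.52 and 6.26 in TGFβ-treated NMuMG cells, against 5.73 and 5.55 in untreated ones (0.75 ± 0.19, limma adjusted p = 0.030), and 6.19 and 6.03 in TGFβ-treated E1KD cells, against 5.23 and 5.13 in untreated ones (0.93 ± 0.19, adjusted p = 0.0024). All 3 Dusp7 probe sets were thus higher with TGFβ on every total RNA array of both lines, and 1 of the 3 passed. Dusp10 differed by 0.12 and 0.23 and Dusp16 by 0.05 and -0.33 in NMuMG and E1KD cells, none past the test. Fits of only the arrays compared did call Dusp5 in NMuMG cells (limma adjusted p = 0.016) and Dusp7 (0.013) and Dusp16 (0.028) in E1KD cells. They also called the difference between lines for Dusp5 (limma adjusted p = 0.0076) and Dusp16 (-0.38, 0.026). That of Dusp5 passed with an intensity trend too (limma adjusted p = 0.0395). Averaged over its probe sets, Dusp7 passed in E1KD cells (0.73, limma adjusted p = 0.011).

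**Figure D1:**
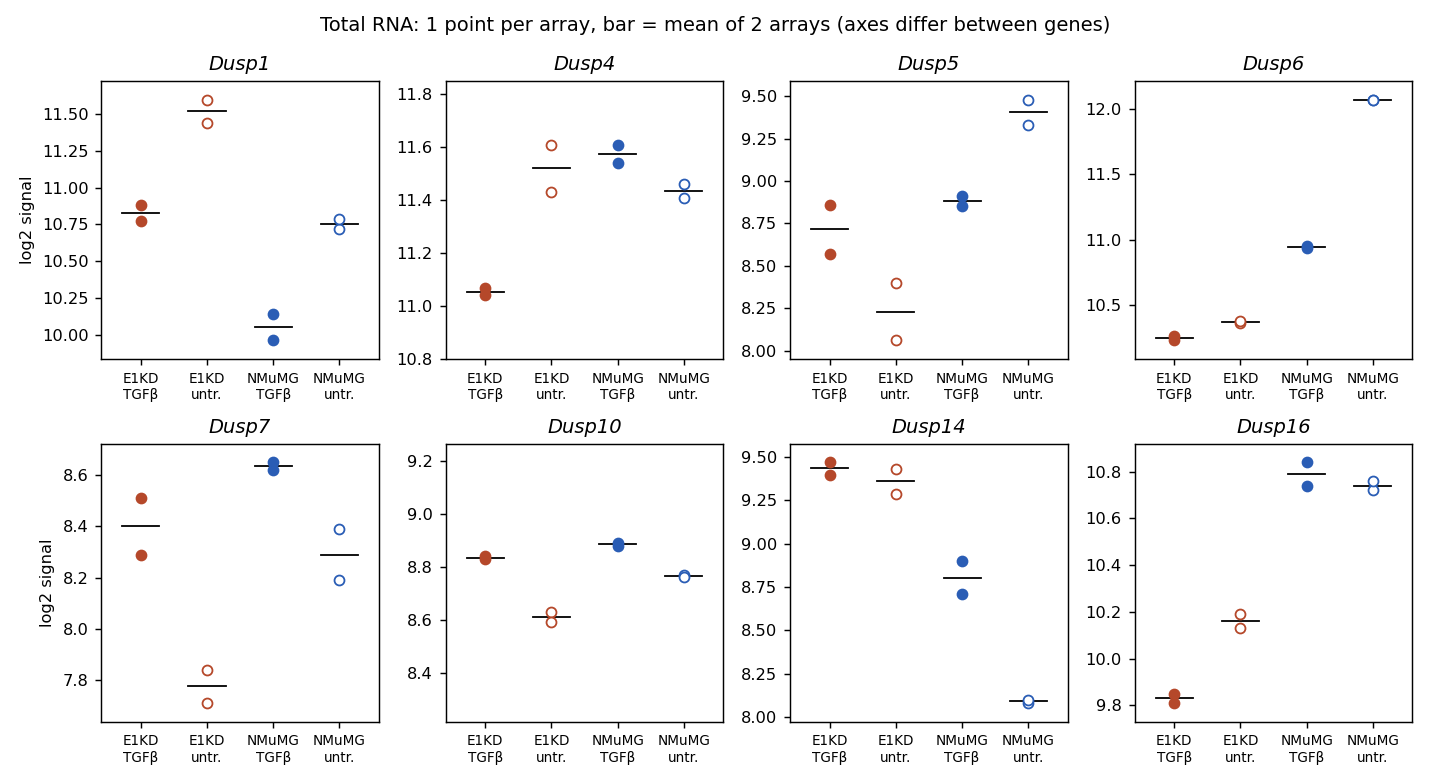
Log2 signal of the 8 phosphatase genes in total RNA. The x axis gives the condition, from left TGFβ-treated and untreated E1KD cells (red) and TGFβ-treated and untreated NMuMG cells (blue), with filled points for TGFβ and a bar at the mean of 2 arrays; Dusp6 stands at 12.07 in untreated NMuMG cells and at 10.94 to 10.95 after TGFβ, and Dusp14 is lowest in untreated NMuMG cells.

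The lines themselves differed at most of these genes. In untreated cells Dusp6, Dusp5 and Dusp16 were lower and Dusp14 and Dusp1 higher in E1KD than in NMuMG cells, and under TGFβ Dusp16, Dusp6 and Dusp4 were lower and Dusp1 and Dusp14 higher. Thus 2 genes were higher and 3 lower in each state, against 29.3% of all probe sets called in untreated (15.8% higher and 13.5% lower) and 27.2% in TGFβ-treated cells (14.7% higher and 12.5% lower). The 2 higher genes were the same in each state. The lower ones shared Dusp6 and Dusp16.

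Among the ERK phosphatases, Dusp6 differed by -1.70 ± 0.13 between untreated E1KD and untreated NMuMG cells (log2; 0.308 of the NMuMG level, limma adjusted p = 3.0e-08), and by -0.70 ± 0.13 under TGFβ (adjusted p = 5.0e-04). Dusp5 read 8.40 and 8.06 in untreated E1KD cells, against 9.48 and 9.33 in untreated NMuMG cells (-1.18 ± 0.25, limma adjusted p = 0.0015), whereas under TGFβ the arrays of the lines overlapped (-0.17 ± 0.25, adjusted p = 0.70). Dusp7 differed by -0.52 ± 0.26 untreated (adjusted p = 0.17), which passed in a fit of only the arrays compared (limma adjusted p = 0.0096). Dusp6 and Dusp5 were therefore lower in the untreated knockdown line, as was Dusp16, whereas Dusp1 and Dusp14 were higher.

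Dusp14 was 1.27 ± 0.13 higher in untreated E1KD than in untreated NMuMG cells (2.41-fold, limma adjusted p = 1.0e-06) and 0.63 ± 0.13 higher under TGFβ (adjusted p = 0.0014). Dusp1 was 0.77 ± 0.13 higher untreated (1.70-fold, adjusted p = 2.3e-04) and 0.78 ± 0.13 higher under TGFβ (adjusted p = 2.4e-04, limma). Untreated NMuMG cells and TGFβ-treated E1KD cells had overlapping Dusp1 levels, and the other neighbours in its order were apart.

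Dusp16, which prefers JNK and p38, read 9.85 and 9.81 in TGFβ-treated E1KD cells, against 10.74 and 10.84 in TGFβ-treated NMuMG cells (-0.96 ± 0.16, 0.514 of the NMuMG level, limma adjusted p = 3.2e-04). Untreated, it read 10.13 and 10.19 in E1KD cells, against 10.72 and 10.76 in NMuMG cells (-0.58 ± 0.16, adjusted p = 0.013). That second call was lost in each of the 4 fits that left out 1 of these arrays (adjusted p = 0.051 to 0.078), although the value stayed between -0.55 and -0.61. Dusp10 differed by -0.16 untreated and -0.05 under TGFβ, neither past the test.

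The position of each transcript on the gradient was compared as the polysomal minus the monosomal log2 signal. The study selected Dusp7 on these same arrays by its pool difference in every condition and its shift in both lines. The selection also required a limited total RNA change with TGFβ and used the TGFβ change in both kinds of precipitate. The values of Dusp7 in those comparisons are therefore a description, and counts are also given without it. In untreated NMuMG cells 6 of the 8 genes were lower on polysomes and 0 higher (5 and 0 without Dusp7), and after TGFβ 3 were higher and 3 lower (2 and 3 without Dusp7). Among all probe sets 71.2% were called in untreated cells (41.9% lower and 29.3% higher) and 49.7% after TGFβ (27.6% higher and 22.1% lower), so that calls were frequent whatever the gene. In untreated NMuMG cells the upper quartile of all values also differed between the pools, at 7.39 and 7.45 in the polysomal against 7.95 or more in the monosomal pool, and its part in the pool differences was tested only by the quantile normalization given below. The median difference of the 8 genes was -0.86 in untreated NMuMG cells, beside -0.14 for all probe sets, and 0.05 after TGFβ, beside 0.02.

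Dusp16 lay furthest toward the monosomal pool in untreated NMuMG cells. There it read 7.83 and 7.62 in the polysomal and 9.96 and 9.92 in the monosomal pool (-2.22 ± 0.16, limma adjusted p = 1.1e-08). After TGFβ it read 8.38 and 8.35 in the polysomal and 7.69 and 8.43 in the monosomal pool, with overlapping arrays (0.31 ± 0.16, adjusted p = 0.14; 0.68 and 1.3e-04 without the second and -0.065 and 0.69 without the first monosomal array, 0.57 and 0.0089 centred on Actb and Gapdh). Dusp4 read 9.38 and 9.03 in the polysomal and 10.97 and 10.99 in the monosomal pool of untreated NMuMG cells (-1.78 ± 0.12, limma adjusted p = 6.1e-09). After TGFβ it still lay lower on polysomes, at 9.84 and 9.83 against 10.26 and 10.53 (-0.56 ± 0.12, adjusted p = 0.0013; -0.29 and 0.062 centred on Actb and Gapdh).

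Dusp10, the other JNK and p38 phosphatase, moved across zero. It read 7.98 and 7.94 in the polysomal and 8.94 and 8.78 in the monosomal pool of untreated NMuMG cells (-0.90 ± 0.12, limma adjusted p = 5.0e-06), and 8.87 and 8.73 against 8.25 and 8.49 after TGFβ (0.43 ± 0.12, adjusted p = 0.0057). Dusp6 went the same way by less, with -0.46 ± 0.13 in untreated (adjusted p = 0.0044) and 0.36 ± 0.13 in TGFβ-treated NMuMG cells (adjusted p = 0.026, limma), though its untreated value was -0.23 (adjusted p = 0.12) centred on Actb and Gapdh and turned to 0.01 under quantile normalization. The TGFβ values of both lost their call without the first monosomal array (Dusp10 0.31, adjusted p = 0.065; Dusp6 0.14, adjusted p = 0.37) and without the first polysomal array (0.36 and 0.057; 0.29 and 0.16).

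Dusp14, Dusp5 and Dusp1 did not follow these genes. Dusp14 read 8.99 and 8.93 in the polysomal and 9.86 and 10.17 in the monosomal pool of NMuMG cells with TGFβ (-1.06 ± 0.13, limma adjusted p = 3.2e-06), but 8.87 and 8.69 against 8.87 and 8.87 in untreated ones (-0.09 ± 0.13). That untreated difference turned to 0.14 centred on Actb and Gapdh (adjusted p = 0.35) and to 0.54 under quantile normalization (limma adjusted p = 9.2e-05). Dusp5 was lower on polysomes in both states, by -1.12 ± 0.25 with TGFβ (adjusted p = 0.0011) and -0.82 ± 0.25 without (adjusted p = 0.0074; -0.43 and 0.15 without the first polysomal array, -0.24 and 0.46 under quantile normalization). Dusp1 differed by -0.20 with TGFβ and 0.14 without, neither past the test, but its untreated value was 0.56 under quantile normalization (limma adjusted p = 7.9e-05) and 0.37 centred on Actb and Gapdh (0.017), and its TGFβ value -0.23 under quantile normalization (0.045).

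**Figure D2:**
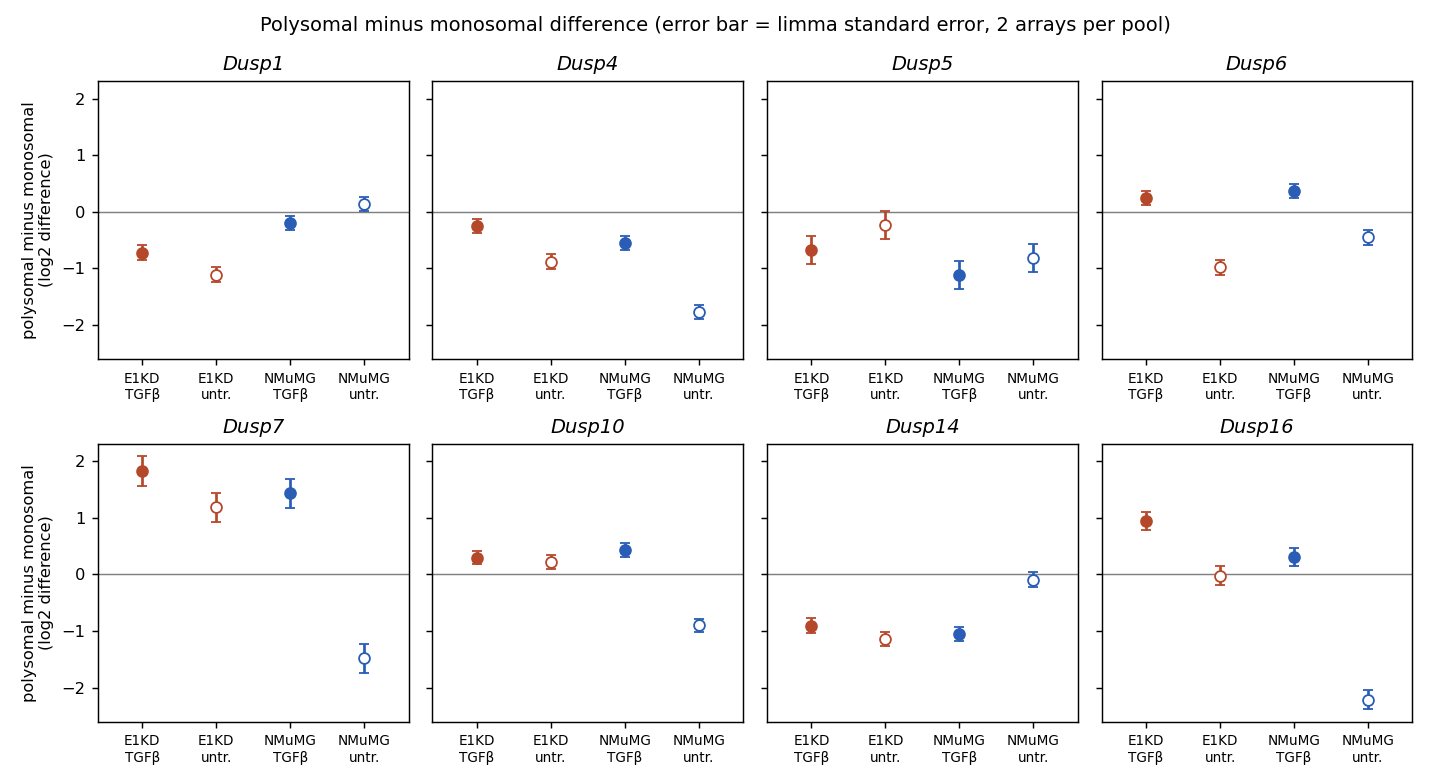
Polysomal minus monosomal log2 difference of each phosphatase gene by condition, E1KD cells in red and NMuMG cells in blue, filled points for TGFβ-treated and open for untreated cells, error bars limma standard errors from 2 arrays per pool. Dusp16 and Dusp4 are lowest in untreated NMuMG cells (-2.22 and -1.78), and Dusp14 is near 0 there and between -0.91 and -1.14 in the other 3 conditions.

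The polysome shift was taken as the difference between pools after TGFβ less that in untreated cells. In NMuMG cells Dusp7, Dusp16, Dusp10, Dusp4 and Dusp6 shifted toward polysomes and Dusp14 away from them. This made 5 of 8 genes higher and 1 lower, against 70.4% of all probe sets called, 40.1% higher and 30.3% lower. The median shift of the 8 genes was 1.02, beside 0.09 for all probe sets, whose upper quartile was 1.45. The 7 genes without Dusp7 gave 4 higher and 1 lower, with a median of 0.82.

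The shift of Dusp16 was 2.52 ± 0.23 (5.74-fold, limma adjusted p = 1.2e-07), that of Dusp10 1.33 ± 0.17 (2.51-fold, adjusted p = 3.1e-06), that of Dusp4 1.22 ± 0.18 (2.32-fold, adjusted p = 1.5e-05) and that of Dusp6 0.82 ± 0.18 (1.76-fold, adjusted p = 7.5e-04). Without either array of the poorly replicated monosomal pool these 4 shifts kept their calls, with Dusp16 at 2.15 and 2.89 and Dusp6 at 0.59 and 1.04. Dusp14 shifted by -0.97 ± 0.18 (0.512-fold, limma adjusted p = 1.9e-04). When total RNA replaced the monosomal pool the calls of Dusp16 (0.59, adjusted p = 0.12), Dusp4 (0.49, 0.084) and Dusp14 (-0.54, 0.066) were lost. Dusp5 changed sign and gained a call toward polysomes in that setting (1.18, limma adjusted p = 0.036). Under quantile normalization the call of Dusp6 was lost (0.24, 0.11), while Dusp1 gained one (-0.80, limma adjusted p = 7.3e-05).

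The shift was then split into its pools. In the monosomal pool of NMuMG cells Dusp16 changed by -1.88 ± 0.16 with TGFβ (log2; 0.272 of the untreated level, limma adjusted p = 5.5e-08), and in the polysomal pool by 0.64 ± 0.16 (adjusted p = 0.0073). Dusp10 was -0.49 ± 0.12 in the monosomal and 0.84 ± 0.12 in the polysomal pool, and Dusp4 -0.59 ± 0.12 and 0.63 ± 0.12, each past the test. Dusp6 was -0.86 ± 0.13 in the monosomal pool and -0.04 ± 0.13 in the polysomal pool, so its shift lay in the monosomal signal. Dusp14 was 1.15 ± 0.13 in the monosomal pool (adjusted p = 7.5e-07) with 0.18 ± 0.13 in the polysomal pool (adjusted p = 0.32, limma). Across the 8 genes TGFβ left 2 higher and 5 lower in the monosomal pool (75.3% of all probe sets called, 34.3% higher and 41.1% lower) and 4 higher and 1 lower in the polysomal pool (30.1%, 18.8% higher and 11.3% lower). Without Dusp7 these were 2 and 4, and 3 and 1.

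Dusp7 had the largest shift among the 8 genes, and its probe sets differed in size. Its brightest probe set read 10.17 and 9.85 in the polysomal and 9.12 and 8.04 in the monosomal pool of NMuMG cells with TGFβ, against 7.37 and 8.03 in the polysomal and 9.29 and 9.08 in the monosomal pool of untreated ones. The shift was 2.92 ± 0.37, and 2.38 to 3.46 when either monosomal array with TGFβ was left out. The other probe sets gave 1.27 ± 0.38 and 1.37 ± 0.27. The 3 thus had 1 direction but a range of more than 1.5 log2 units, and over the 12 condition means the brightest correlated with the others at 0.786 and 0.738, while those correlated with each other at 0.948. The identifier of the brightest marks it as one that may hybridize to other transcripts as well.

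In E1KD cells without TGFβ the order on the gradient was different. Dusp14, Dusp1, Dusp6 and Dusp4 were lower on polysomes (-1.14 ± 0.13, -1.11 ± 0.13, -0.99 ± 0.13 and -0.88 ± 0.12) and Dusp7 higher (1.19 ± 0.26), 1 higher and 4 lower (0 and 4 without Dusp7), against 35.0% of all probe sets called (16.8% higher and 18.2% lower). Dusp16 read 8.76 and 8.94 in the polysomal and 8.86 and 8.88 in the monosomal pool (-0.02 ± 0.16), and Dusp10 differed by 0.22 ± 0.12. The other probe sets of Dusp7 stood at -0.27 and 0.02 and the average of its 3 at 0.31. With TGFβ Dusp7, Dusp16 and Dusp10 were higher on polysomes (1.83 ± 0.26, 0.95 ± 0.16 and 0.30 ± 0.12) and Dusp14, Dusp1 and Dusp5 lower (-0.91 ± 0.13, -0.73 ± 0.13 and -0.67 ± 0.25), 2 higher and 3 lower without Dusp7, against 60.7% of all probe sets (34.0% higher and 26.6% lower). The calls of Dusp10 and Dusp5 there were lost in 3 and in 4 of the 4 fits without 1 array.

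Set directly against each other, untreated E1KD and untreated NMuMG cells differed in the polysomal minus monosomal difference at 7 of the 8 genes, 4 higher and 3 lower in E1KD cells (3 and 3 of 7 without Dusp7), against 61.8% of all probe sets (36.1% higher and 25.7% lower). Dusp7 (2.67 ± 0.37), Dusp16 (2.20 ± 0.23), Dusp10 (1.12 ± 0.17) and Dusp4 (0.90 ± 0.18) lay more toward polysomes in untreated E1KD cells, and Dusp1 (-1.25 ± 0.18), Dusp14 (-1.05 ± 0.18) and Dusp6 (-0.53 ± 0.18) less. The other Dusp7 probe sets gave 0.32 ± 0.38 and 1.12 ± 0.27. With TGFβ 0 of the 8 genes differed between the lines by limma at an adjusted p under 0.05, against 12.8% of all probe sets, the nearest being Dusp1 (-0.53 ± 0.18, 95% interval -0.91 to -0.14, adjusted p = 0.069) and Dusp16 (0.64 ± 0.23, 0.15 to 1.13, adjusted p = 0.082). The intervals exclude 0 before adjustment for Dusp1 and Dusp16, so those values do not show that the lines are alike.

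**Figure D3:**
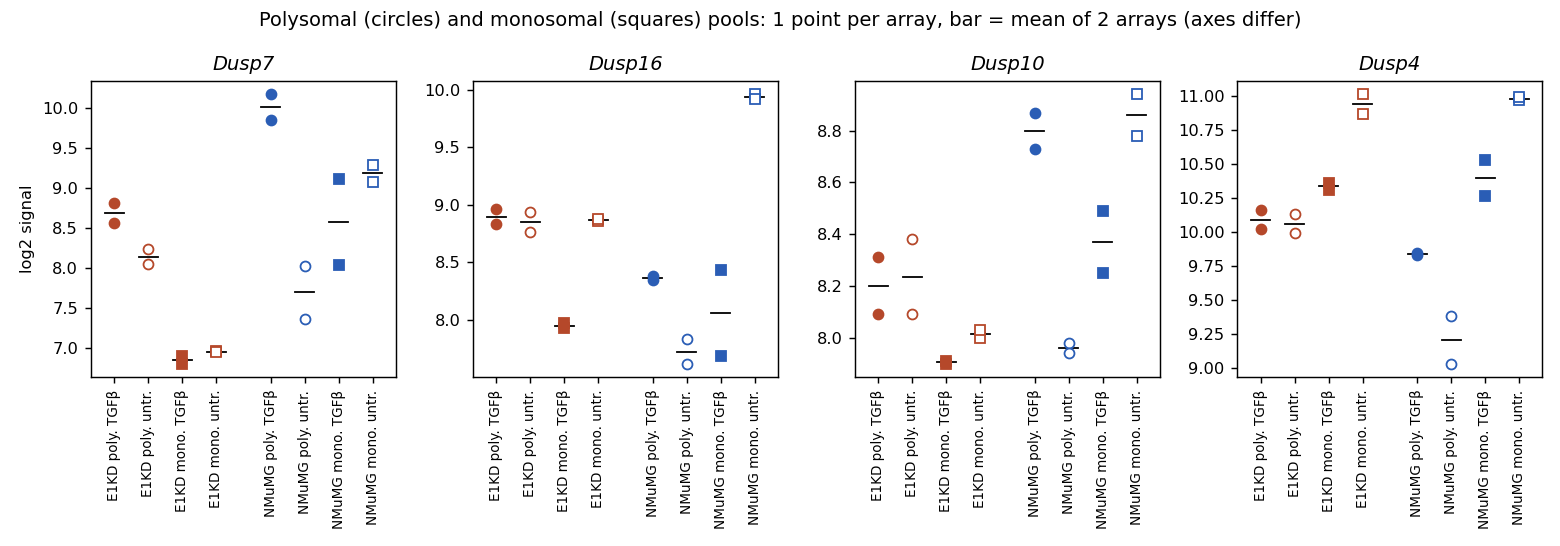
Log2 signal of Dusp7, Dusp16, Dusp10 and Dusp4 in polysomal (circles) and monosomal (squares) pools, 1 point per array and a bar at the mean, E1KD in red and NMuMG in blue, filled for TGFβ. In NMuMG cells the monosomal Dusp16 signal stands at 7.69 and 8.43 with TGFβ and at 9.96 and 9.92 without, while its polysomal signal stands at 8.38 and 8.35 with TGFβ and at 7.83 and 7.62 without.

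In E1KD cells 3 genes shifted toward polysomes with TGFβ. Dusp6 (1.23 ± 0.18, 2.34-fold, limma adjusted p = 4.1e-04), Dusp16 (0.97 ± 0.23, adjusted p = 0.0069) and Dusp4 (0.64 ± 0.18, adjusted p = 0.015; 0.57 and 0.058 to 0.062 in 3 of the 8 fits without 1 array) were higher and 0 genes lower, against 28.7% of all probe sets called, 20.9% higher and 7.73% lower. Dusp10 did not shift past the test (0.08 ± 0.17), nor did Dusp14 (0.24 ± 0.18). For Dusp6 the polysomal signal itself was lower with TGFβ, at 7.85 and 7.95 against 8.32 and 8.47 without (-0.50 ± 0.13, adjusted p = 0.036), and the monosomal signal was lower still, at 7.76 and 7.56 against 9.36 and 9.40 (-1.72 ± 0.13, adjusted p = 5.6e-07, limma). Counted per pool, TGFβ left 0 genes higher and 4 lower in the monosomal pool of E1KD cells (39.3% of all probe sets called, 12.9% higher and 26.4% lower) and 0 higher and 1 lower in the polysomal pool (4.45%, 3.04% higher and 1.41% lower). When total RNA replaced the monosomal pool the shift of Dusp6 turned to -0.37, and those of Dusp16 (0.38, adjusted p = 0.36) and Dusp4 (0.50, adjusted p = 0.084) lost their calls. Dusp1 gained a call in that setting (0.66, limma adjusted p = 0.027).

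The shifts differed between the lines (E1KD minus NMuMG) at 5 of the 8 genes, 2 higher and 3 lower (2 and 2 of 7 without Dusp7), against 36.5% of all probe sets (13.1% higher and 23.5% lower). Dusp7 (-2.28 ± 0.52, with -0.67 ± 0.53 and -1.19 ± 0.39 by its other probe sets), Dusp16 (-1.56 ± 0.33, limma adjusted p = 0.0019) and Dusp10 (-1.26 ± 0.23, adjusted p = 7.5e-04) shifted less toward polysomes in E1KD cells, and Dusp14 shifted less away from them (1.20 ± 0.26, adjusted p = 0.0020). Dusp1 differed by 0.73 ± 0.26 (adjusted p = 0.037), which did not hold in the unfiltered table (adjusted p = 0.076) nor in 9 of the 16 fits without 1 array (0.57 to 0.74, adjusted p = 0.059 to 0.081). Dusp4 (-0.58 ± 0.25, adjusted p = 0.080) and Dusp6 (0.41 ± 0.25, adjusted p = 0.22, limma) did not pass.

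The immunoprecipitates asked which transcripts were recovered with hnRNP E1 and whether TGFβ changed that. With both treatments pooled and libraries taken as titled, Dusp5 was higher in α-hnRNP E1 than in IgG precipitates and the other 7 genes did not pass, 1 of 8 against 25.6% of all probe sets called (14% higher and 11.7% lower). Dusp5 read 9.45 and 9.89 in α-hnRNP E1 libraries titled TGFβ (14A and 13B) and 9.80 and 9.18 in those titled control (13A and 14B), against 9.07 and 9.18 in IgG with TGFβ and 8.30 and 8.11 in IgG without (0.92 ± 0.16, 1.89-fold, limma adjusted p = 0.0069). The lowest α-hnRNP E1 library equalled the highest IgG library at 9.18.

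Within the α-hnRNP E1 libraries the arrays numbered 13 and those numbered 14 stood apart at every member but Dusp1, across the titled treatments. Dusp7 read 9.59 (13B) and 9.48 (13A) against 8.54 (14A) and 8.34 (14B), and Dusp6 read 10.88 and 10.65 against 11.63 and 11.74 in the same order. As titled, TGFβ changed 0 of the 8 genes in α-hnRNP E1 precipitates (limma; 0% of all probe sets, with 403 of 25432 at an unadjusted p under 0.05), and the interval for Dusp7 ran from -0.83 to 1.14. As described, with 14A and 14B as TGFβ-treated, 1 gene was higher and 5 were lower with TGFβ (1 and 4 without Dusp7), against 14.7% of all probe sets (6.09% higher and 8.60% lower). Under that assignment Dusp7 stood at -1.10 ± 0.13, Dusp14 fell by 0.56 ± 0.10 and Dusp16 by 0.55 ± 0.09, and Dusp6 was 0.92 ± 0.10 higher (adjusted p = 5.2e-04, limma). Which assignment is right was not settled by the labels, so no direction is given for TGFβ here. The study selected Dusp7 for a lower signal with TGFβ in these precipitates, which its brightest probe set has as described and not as titled.

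The labels of the IgG precipitates agree. With TGFβ, Dusp5 stood 0.92 ± 0.23, Dusp7 0.83 ± 0.42 and Dusp14 0.44 ± 0.23 above the untreated IgG arrays and Dusp6 -0.52 ± 0.35 from them, the 4 of largest difference. In the fit of the libraries as titled 0 of 8 passed by limma (0.00393% of all probe sets, 1765 of 25432 at an unadjusted p under 0.05). As described, where the spread within α-hnRNP E1 conditions was smaller, these same values passed, 3 genes higher and 1 lower (2 and 1 without Dusp7), against 5.83% of all probe sets (2.84% higher and 3.0% lower). Pooled over treatments, that fit called Dusp5, Dusp7 (0.56 ± 0.09) and Dusp14 (0.36 ± 0.07) higher and Dusp6 (-0.52 ± 0.07) lower in α-hnRNP E1 than in IgG precipitates, against 42.2% (21.6% higher and 20.5% lower).

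**Figure D4:**
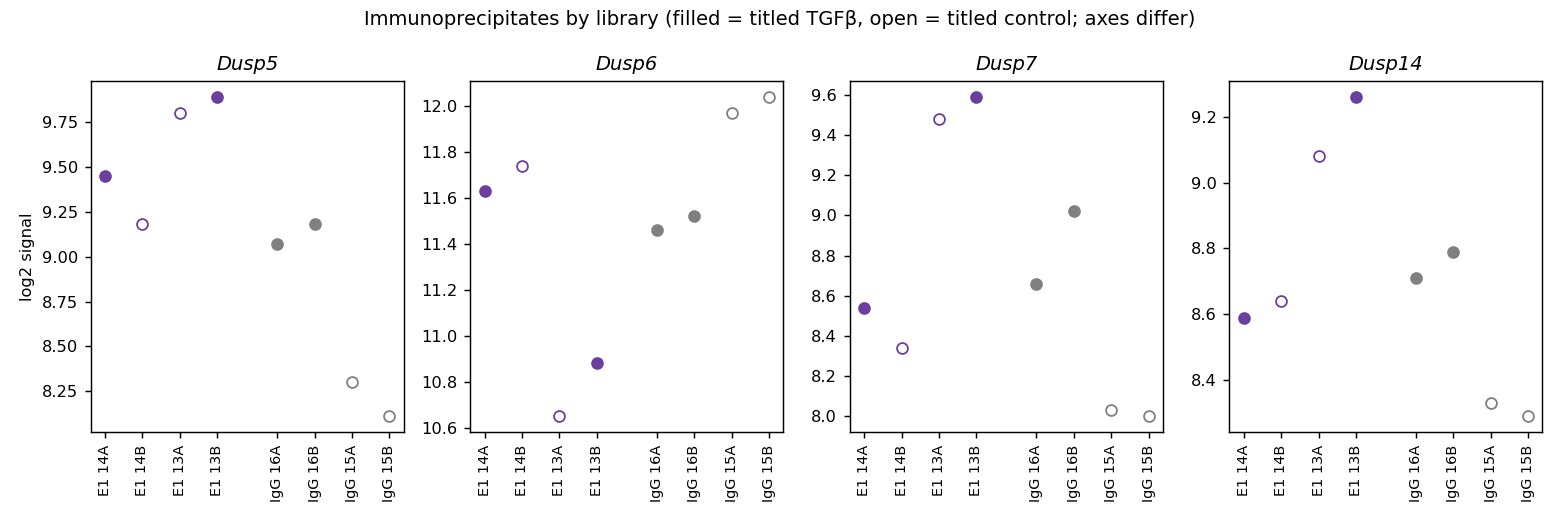
Log2 signal of Dusp5, Dusp6, Dusp7 and Dusp14 on each immunoprecipitation array, α-hnRNP E1 in purple and IgG in gray, filled points for libraries titled TGFβ and open for those titled control. The α-hnRNP E1 arrays pair by number (13 and 14) and not by fill, Dusp7 at 9.48 and 9.59 for 13 and 8.54 and 8.34 for 14.

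Other parts of the pathway were read from lists of genes. Of 13 other dual-specificity phosphatase genes 12 were kept. With TGFβ 1 of these rose and 0 fell in total RNA of NMuMG cells (Dusp18, 0.66 ± 0.13), beside 5.43% of all probe sets called, and 1 rose and 3 fell in E1KD cells, beside 21.2%, Dusp2 by 1.23 ± 0.18 upward, with Dusp8 (-0.90 ± 0.18), Dusp3 (-0.89 ± 0.11) and Dusp11 (-0.39 ± 0.10) lower. In the polysome shift of NMuMG cells, beside 70.4% of all probe sets called, 3 were higher and 4 lower (Dusp18 1.68 ± 0.18, Dusp8 -1.23 ± 0.25), with a median of -0.22, beside 1.02 for the 8 members. Of the 16 genes known as feedback inhibitors or targets of ERK 15 were kept, and 1 was higher and 8 lower in untreated E1KD than in untreated NMuMG cells, beside 29.3% of all probe sets called (15.8% higher and 13.5% lower), led by Etv4 (-2.03 ± 0.25), Spred1 (-1.36 ± 0.24), Spry2 (-1.14 ± 0.20) and Spry1 (-0.95 ± 0.19), with a median of -0.60, beside -0.02 for all probe sets. Etv4 is a transcription factor induced by ERK, and Spred and Sprouty proteins restrain Ras and Raf signaling.

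With TGFβ, 1 of these 15 genes rose and 3 fell in NMuMG cells and 4 rose and 3 fell in E1KD cells, and the counts of this paragraph stand beside 5.43% of all probe sets called in NMuMG and 21.2% in E1KD cells. Egr1, an immediate early transcription factor, fell by 1.65 ± 0.16 in NMuMG cells and rose by 1.54 ± 0.16 in E1KD cells, and Fosl1, a subunit of AP-1, fell by 1.01 ± 0.11 in NMuMG cells. Among 6 kept MAP kinase genes of 10, 0 passed with TGFβ in total RNA of either line (limma), and Mapk8, which encodes JNK1, was -0.55 ± 0.16 in untreated E1KD cells relative to NMuMG cells. Of 16 kept kinases of the upstream tiers, of 18, 0 rose and 2 fell in NMuMG cells (Map3k5 -0.87 ± 0.19, Map3k1 -0.58 ± 0.16) and 3 rose and 1 fell in E1KD cells (Map2k6 0.86 ± 0.15, Map3k5 0.81 ± 0.19). Of 9 kept genes of Ras and its adaptors, of 11, 0 passed in NMuMG cells and 1 rose in E1KD cells (Rasa1, 0.60 ± 0.17).

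In the polysome shift of NMuMG cells these tiers were called about as often as all probe sets (70.4%, 40.1% higher and 30.3% lower). The shift was higher for 3 and lower for 1 of the 6 MAP kinases (Mapk9 2.09 ± 0.26, Mapk14 1.14 ± 0.17), higher for 8 and lower for 3 of the 16 upstream kinases (Map3k7 3.0 ± 0.25, Map2k6 2.50 ± 0.22, Map2k4 2.17 ± 0.23) and higher for 6 and lower for 1 of the 9 Ras and adaptor genes (Rasa1 2.57 ± 0.25, Sos1 2.20 ± 0.30). Of 9 kept genes known to be induced by TGFβ, of 13, 9 rose in total RNA of NMuMG cells and 6 in E1KD cells. Among all probe sets 3.0% and 11.4% were higher. Itgb6 stood at 1.70 ± 0.23 and 1.19 ± 0.23 and Rhob at 1.55 ± 0.12 and 1.04 ± 0.12. This list was chosen with earlier results of these data known, so it is no independent check on the stimulus.

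Across the 12 condition means of total, polysomal and monosomal RNA, the genes whose pattern was most like each member were found by Pearson's r over 1 probe set a gene, as a description over points that share arrays and pools. Dusp16 lay closest to Map3k2 (r = 0.989) and 1810013L24Rik (0.988), Dusp6 to Mtcl1 (0.970) and Lcor (0.967), and Dusp4 to Rbm45 (0.969) and Rasa3 (0.968). Dusp10 lay closest to Acvr1 (0.964) and Rnf4 (0.956), and Dusp14 to Phlda3 (0.960) and Fam214b (0.953). Map3k2 and Acvr1 encode a kinase of the MAP kinase cascade and a receptor of the TGFβ family. The matches of Dusp5 (Rad9a 0.935, Klhl25 0.927), Dusp7 (Vegfc 0.935, Pank2 0.930) and Dusp1 (Sdf4 0.925, Marchf3 0.907) were looser.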

How the data were processed

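The data were 32 Affymetrix Mouse Genome arrays from 16 conditions with 2 replicates each. The deposited values are log2 signals to which the authors had applied RMA (Affymetrix Expression Console), used here as they stand; the genome build behind the probe annotation is not given in the sources used here. Of the probe sets, 34945 carry 1 symbol, 932 several and 9160 none in the platform annotation, and 64 control probe sets were left out. Conditions came from the deposited titles. Differences were fitted by lmFit and eBayes of limma 3.58.1 (R 4.3.3, 2-sided) over the 24 arrays of total, polysomal and monosomal RNA (12 residual degrees of freedom) and over the 8 immunoprecipitation arrays (4), with Benjamini-Hochberg adjustment over 25432 kept probe sets and a threshold of 0.05. Differences between lines were tested as interactions. The procedure was tested on simulated data. The members and lists were chosen with earlier results of these data known. Named genes were all members, Pcbp1, up to 4 genes of largest change past the threshold per list and the 2 most similar genes per member. Alternatives were no filter and a stricter one, all 32 arrays or only those compared, an intensity trend, quantile normalization, centring on Actb and Gapdh, averaged probe sets, total in place of monosomal RNA, the replicate number as a block, the libraries as described (for IgG added after seeing the data), and each array left out. Figures and promoter searches used Python 3.11.15, pandas 2.3.3 and matplotlib 3.10.9.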

Additional observations from a re-analysis of the deposited data

Results flagged for a closer look

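The effect of TGFβ differed between the lines, by the test of the difference itself (E1KD minus NMuMG, limma with adjustment over all probe sets), for 7 results, and an eighth, Dusp7, met the same threshold. In total RNA these were Dusp6 (1.00), Dusp14 (-0.64) and Dusp4 (-0.61), on the log2 scale. In the polysome shift they were Dusp16 (-1.56), Dusp10 (-1.26), Dusp14 (1.20) and Dusp1 (0.73). The value of Dusp7 (-2.28) is a description, since the study selected this gene on these arrays for a shift that differed between the lines. The share of all probe sets that differed was 11.4% in total RNA and 36.5% in the shift. Dusp14 appears in both and was higher in E1KD than in NMuMG cells in untreated total RNA by 1.27. Several of these calls depended on the fit. In 1 fit of all 32 arrays the total RNA results of Dusp6, Dusp14 and Dusp4 did not pass (limma adjusted p = 0.063, 0.108 and 0.062). Without a filter Dusp14 (0.069) and Dusp4 (0.083) in total RNA and Dusp1 in the shift (0.076) did not pass either (limma).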

How the results depend on the processing

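The 120 values of single genes (8 genes in 15 comparisons) were recomputed under every alternative that applied to them, total for monosomal RNA only to the shift in each line and the libraries as described only to the precipitates. With other settings 1031 kept direction and side of the threshold, 29 lost and 36 gained a call and 24 changed sign, and with 1 array left out 610, 47, 8 and 39 did. The cause of these changes was not tested. Neither the methods nor the labels say whether replicate numbers pair the samples. The differences between replicates correlated at -0.383 to 0.323 between conditions, with 21 of 66 pairs above 0.1. With the number as a replicate block 0 of 120 values changed side, so the counts of genes called remained, among them 6 for the polysome shift of NMuMG cells and 3 for total RNA.

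Counts of the 8 genes called changed by over 1.5 times as follows. For the difference between lines in the total RNA response (3) the count was 1 with no filter, 0 in a fit of all 32 arrays, 5 in a fit of only the arrays compared and 1 to 2 with an array left out. For total RNA in E1KD cells (2) it was 4 in a fit of only the arrays compared and 1 to 2 with an array left out. For polysomal minus monosomal RNA in TGFβ-treated NMuMG cells (6) it was 3, and for TGFβ in IgG precipitates (0) 4, in fits of only the arrays compared; the IgG count was also 4 as described, an alternative chosen after seeing the data. For α-hnRNP E1 versus IgG (1) it was 3 in a fit of all 32 arrays, 4 as described and 1 to 2 with an array left out. For TGFβ in α-hnRNP E1 precipitates (0) it was 6 as described, and for the shift in E1KD cells (3) it was 1 with total for monosomal RNA. That 1 gene was Dusp1, which was not among the 3.

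Calls gained by scaling beside those given with the results were Dusp16 for total RNA in E1KD cells (-0.41), Dusp4 for the pool difference of TGFβ-treated E1KD cells (-0.45) and Dusp6 for the difference of shifts (0.68) under quantile normalization, and Dusp6 for the pool difference of TGFβ-treated E1KD cells (0.37) and Dusp1 for the E1KD shift (0.50) centred on Actb and Gapdh. Sign changes (log2) were these. Under quantile normalization the difference between lines in the total RNA response of Dusp1 was -0.014, the pool difference of untreated NMuMG cells 0.014 for Dusp6 and 0.54 for Dusp14, that of TGFβ-treated E1KD cells -0.0054 for Dusp6, the shift in E1KD cells -0.20 for Dusp10 and -0.010 for Dusp14, the difference of shifts 0.11 for Dusp5, and α-hnRNP E1 minus IgG -0.017 for Dusp16. Centred on Actb and Gapdh, the response in E1KD total RNA was -0.043 for Dusp14, the difference between lines -0.17 for Dusp1 and -0.073 for Dusp10, the pool difference 0.14 for Dusp14 in untreated and 0.068 for Dusp1 in TGFβ-treated NMuMG cells, α-hnRNP E1 minus IgG -0.041 for Dusp16, and the TGFβ change in α-hnRNP E1 precipitates -0.033 for Dusp1. As described, that last change was -0.37 for Dusp4, -0.53 for Dusp5, -1.10 for Dusp7 and -0.56 for Dusp14. With total for monosomal RNA the shift was 0.35 for Dusp1 and 1.18 for Dusp5 in NMuMG cells and -0.37 for Dusp6, -0.085 for Dusp7 and -0.26 for Dusp10 in E1KD cells.

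With 1 array left out the ranges that crossed 0 were -0.08 to 0.10 for Dusp1 (difference between lines, total RNA), -0.005 to 0.18 for Dusp4 (untreated E1KD minus NMuMG), -0.02 to 0.30 for Dusp1 and -0.065 to 0.68 for Dusp16 (pool difference in untreated and in TGFβ-treated NMuMG cells), -0.11 to 0.07 for Dusp16 (pool difference, untreated E1KD cells), -0.71 to 0.11 for Dusp5 (shift, NMuMG), -0.07 to 0.22 for Dusp10 (shift, E1KD), -0.55 to 0.28 for Dusp5 (difference of shifts), -0.14 to 0.068 for Dusp10 and -0.15 to 0.16 for Dusp16 (α-hnRNP E1 minus IgG), and -0.01 to 0.22 for Dusp10 (IgG, TGFβ). In α-hnRNP E1 precipitates with TGFβ they were -0.035 to 0.055 for Dusp1, -0.15 to 0.26 for Dusp4, -0.13 to 0.49 for Dusp5, -0.49 to 0.61 for Dusp6, -0.42 to 0.73 for Dusp7, -0.30 to 0.12 for Dusp10, -0.27 to 0.40 for Dusp14 and -0.35 to 0.25 for Dusp16.

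Over all probe sets, centring on Actb and Gapdh shifted all differences of a comparison by up to 0.27 (pool difference, TGFβ-treated NMuMG cells) and the share of higher among called probe sets to 67.3% from 55.3% for the total RNA response of NMuMG cells, 35.6% from 54.0% for that of E1KD cells, 26.6% from 50.3% for their difference, 40.5% from 54.0% for TGFβ-treated E1KD minus NMuMG, 52.6% from 41.2% and 74.0% from 55.5% for the pool differences of untreated and TGFβ-treated NMuMG cells, and 85.1% from 73.0% for the E1KD shift. Quantile normalization gave 54.1% for that shift and 47.4% in place of 35.8% for the difference of shifts. The number of probe sets called for the total RNA response was 3931 in NMuMG and 8665 in E1KD cells in fits of only the arrays compared, in place of 1382 and 5385, and 634 in NMuMG cells in a fit of all 32. Fits of only the arrays compared also gave 7340 in place of 2910 for their difference, 11698 and 10542 in place of 7453 and 6917 for untreated and TGFβ-treated E1KD minus NMuMG, 7085 in place of 12649 for the pool difference of TGFβ-treated NMuMG cells, and 1570 in place of 1 for TGFβ in IgG precipitates (31 with all 32 arrays and 1483 as described). As described, 10725 in place of 6522 were called for α-hnRNP E1 versus IgG and 3737 in place of 0 for TGFβ in α-hnRNP E1 precipitates. For the shift it was 3108 in NMuMG and 2919 in E1KD cells with total for monosomal RNA, in place of 17894 and 7289. Averaging the probe sets of a gene, which tests fewer features, gave 1.61 to 1.92 times fewer calls in 11 of 15 comparisons. Low signal kept 2 of the 12 probe sets out of the test, and with 2 arrays a condition the number of arrays limits every value.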
